A study of Mus musculus with 6 samples.

Results

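Among the genes measured in the rib cage were 10 transcriptional regulators of the epidermis, Trp63, Klf4, Grhl1, Grhl3, Ovol1, Zfp750, Gata3, Tfap2a, Hopx and Prdm1. They were chosen for their known roles in skin, with earlier results of these data known. Matched by symbol, they are 10 of the 55487 gene IDs in the count table. RNA was sequenced from rib cages of mouse embryos at 16.5 dpc. There were 3 controls (embryos E420, E434 and E435), labelled wild type, and 3 mutants (E423, E433 and E440), labelled Col2-cre;Foxc1-/-;Foxc2-/-. In the mutants the Col2-cre transgene, active in chondrocytes and perichondrium, deletes the floxed forkhead genes Foxc1 and Foxc2. Per the study's methods the embryos compared were littermates on a mixed C57B6/Black Swiss background, and connective tissue was removed from the rib cages after dissection. Skin was not the target of the dissection. Each library was labelled with a separate embryo, and every level is an average over all cells in the dissected piece.

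The epidermis forms from a basal layer that divides and from layers above it that stop dividing, flatten and build the barrier of the skin. p63, the product of Trp63, establishes the basal layer and turns on its keratins Krt5 and Krt14. Other regulators, among them Grhl3, Klf4, Ovol1, Zfp750 and Prdm1, act as cells leave the basal layer and assemble the cornified envelope. While the embryo stratifies, a transient outer layer, the periderm, covers the surface and is later shed. Several of these factors also serve other cells, for example Klf4 in endothelium and Prdm1 in lymphocytes, so their transcripts in a rib cage need not come from skin.

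Promoter windows of 7 of the 10 genes were present in the RefSeq table for GRCm38.p6, each with 250 bases before and 50 bases after an annotated start, and 3 genes (Trp63, Ovol1 and Zfp750) had none. The windows were searched on both strands for the letters AACCNGTT (bound by grainyhead-like factors, the Grhl family), GCCNNNGGC (TFAP2 factors), TGANTCA (AP-1) and CACCC (Klf factors). AACCNGTT lay in 0 of the 10 windows of the members and in 2.09% of all 32851 windows. GCCNNNGGC lay in 5 of these 10 windows (of Gata3, Klf4, Hopx and Grhl1), against 16.6% of all windows. TGANTCA lay in 1 of the 10, that of Prdm1, against 7.81% of all windows, and CACCC in 5 of the 10 (of Gata3, Grhl3, Grhl1 and Tfap2a), against 57.5%. Hopx, Grhl1 and Tfap2a each had 2 of the windows. No match overlapped a match of another motif in the windows printed. The windows of Grhl3, Klf4, Prdm1 and the reference gene Krt5 are shown because the results below turn on the first 3 genes measured against the fourth. Matches are in capitals, and each is a match of letters and not a measured binding site.
Grhl3 (chr4:135573583-135573882, minus strand): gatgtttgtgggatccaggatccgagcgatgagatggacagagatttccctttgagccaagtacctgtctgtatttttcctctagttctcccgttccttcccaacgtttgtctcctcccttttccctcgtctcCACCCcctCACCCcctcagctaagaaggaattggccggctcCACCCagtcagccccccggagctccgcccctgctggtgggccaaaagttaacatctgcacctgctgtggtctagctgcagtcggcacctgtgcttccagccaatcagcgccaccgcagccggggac
Klf4 (chr4:55532426-55532725, minus strand): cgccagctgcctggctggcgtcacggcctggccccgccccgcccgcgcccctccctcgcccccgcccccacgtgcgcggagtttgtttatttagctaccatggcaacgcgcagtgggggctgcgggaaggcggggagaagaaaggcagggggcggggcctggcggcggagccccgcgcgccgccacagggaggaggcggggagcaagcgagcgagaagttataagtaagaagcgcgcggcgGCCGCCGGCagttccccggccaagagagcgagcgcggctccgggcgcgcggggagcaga
Prdm1 (chr10:44458699-44458998, minus strand): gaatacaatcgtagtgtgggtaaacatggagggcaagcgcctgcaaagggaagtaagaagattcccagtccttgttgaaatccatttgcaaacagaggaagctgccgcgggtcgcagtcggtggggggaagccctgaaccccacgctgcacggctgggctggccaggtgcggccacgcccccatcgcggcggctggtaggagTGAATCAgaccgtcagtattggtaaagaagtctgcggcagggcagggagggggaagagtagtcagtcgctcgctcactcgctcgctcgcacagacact
Krt5 (chr15:101712856-101713155, minus strand): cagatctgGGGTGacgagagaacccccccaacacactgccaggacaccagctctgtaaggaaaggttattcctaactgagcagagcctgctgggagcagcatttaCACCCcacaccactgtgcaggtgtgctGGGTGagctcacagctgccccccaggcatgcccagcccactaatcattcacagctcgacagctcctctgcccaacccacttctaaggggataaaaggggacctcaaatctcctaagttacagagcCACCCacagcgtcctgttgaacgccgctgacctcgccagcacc

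Libraries held between 37853988 and 47794799 counts, and levels are given as CPM (counts scaled to library size). A fragment can give up to 2 counts, because each of its ends was counted alone, so a count of 0 was taken to allow up to 3 fragments or 6 counts, which came to between 0.124 and 0.153 CPM. The targeted gene Foxc1 stood at 23.1, 36.9 and 24.2 CPM in control libraries E420, E434 and E435 and at 3.56, 9.60 and 3.51 CPM in mutant libraries E423, E433 and E440. The libraries differed strongly within each group. Krt5, the basal keratin, stood at 375, 0.640 and 391 CPM in control libraries E420, E434 and E435, and at 900, 193 and 896 CPM in mutant libraries E423, E433 and E440. Col2a1, the main cartilage collagen, ran the other way, at 631, 14426 and 582 CPM in these controls and at 177, 4926 and 162 CPM in these mutants. Control E434 therefore had only 29 Krt5 counts, and its keratinocyte markers were near 0 while its cartilage markers were highest. E420 and E435 were alike, and so were E423 and E440. Their RSEM fragment counts differed by chi-square values of 5.89 and 2.35 per degree of freedom, above the value of 1 that sampling noise gives. The other pairs within a group differed far more, for example by 109.9 for E434 with E435 and 138.2 for E433 with E440. A value above 1 cannot tell separate embryos from repeated libraries of the same RNA, so the independence of the close libraries was not tested. They were kept as separate samples under their embryo labels. The labels give no batch or litter. In whole tissue, fewer cells of a type and less RNA per cell cannot be told apart.

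All 10 regulators were lowest in control E434 and highest in mutants E423 and E440, and none separated the controls from the mutants. Mutant E433 lay below controls E420 and E435 for 9 of the 10, and E423 and E440 lay above both of these controls for all 10. The mutants exceeded all controls for 0 members, against 6.81% of the 26596 genes tested, and lay below all controls for 0 members, against 8.21%. The ascending order E434, E433, the controls E420 and E435, and the mutants E423 and E440 held for 9 members, all but Prdm1, and for 5.72% of all genes tested. Krt5 and Krt14 had this order too.

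**Figure D1:**
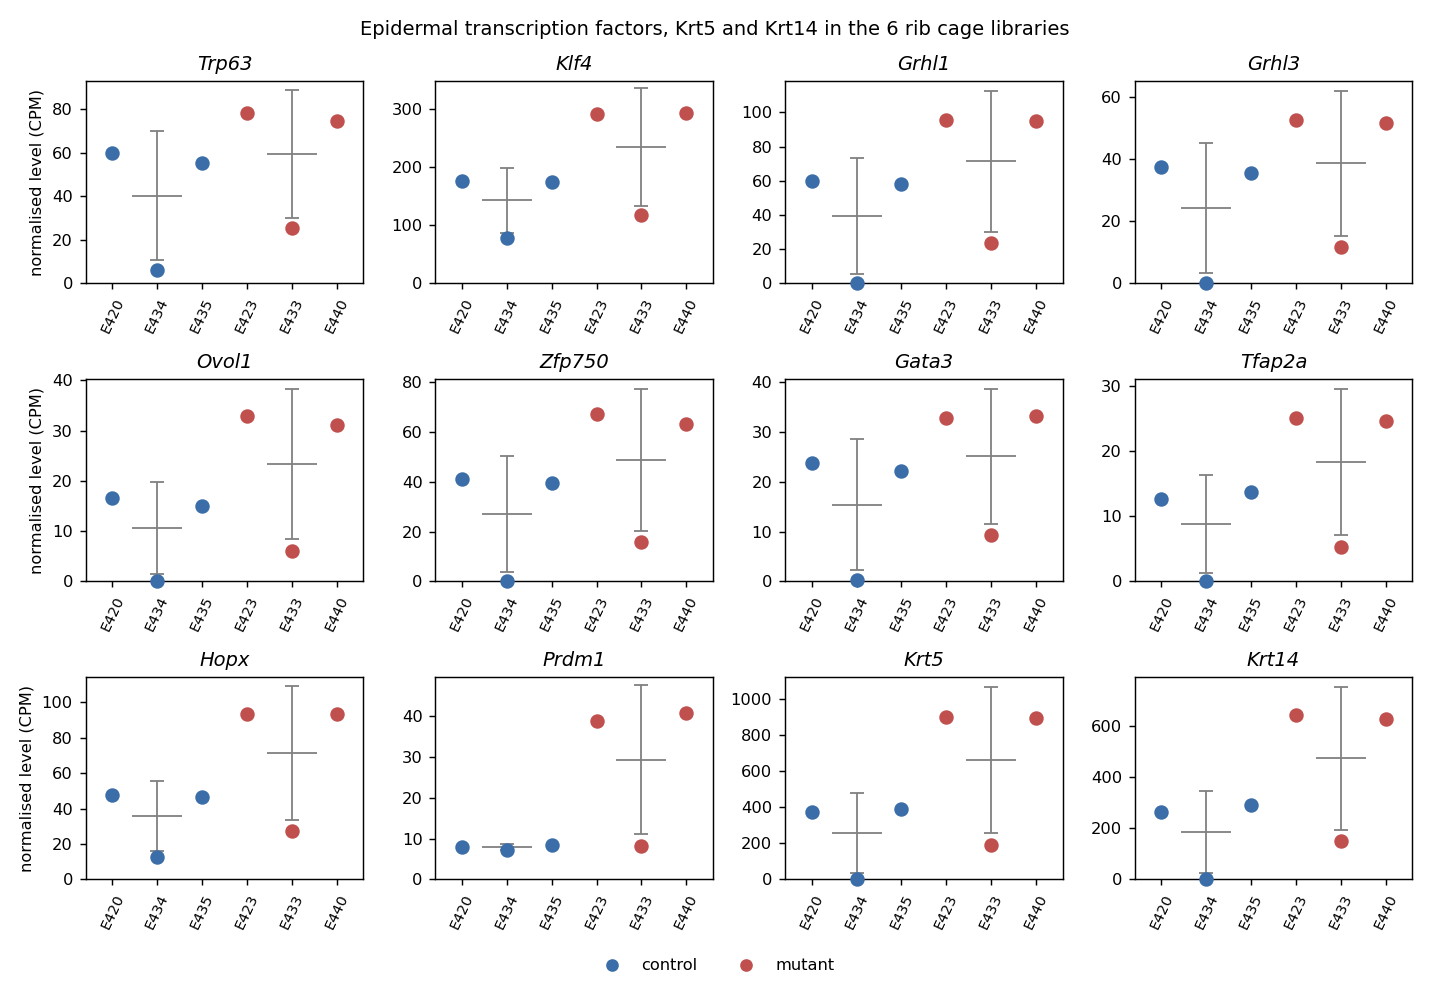
Normalised level in CPM (vertical axes, each from 0) of the 10 transcription factors, Krt5 and Krt14 in each of the 6 libraries (horizontal axes). Blue points are controls, red points are mutants, and the grey lines show the group mean and SD (n = 3). Control E434 is lowest in every panel and mutant E433 lies below controls E420 and E435 in every panel except Prdm1.

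Trp63 (ENSMUSG00000022510.14, GRCm38 chr16:25683763-25892102) encodes p63, whose full-length and amino-terminally truncated forms were not separated by counts per gene. It stood at 60.0, 6.04 and 55.1 CPM in control libraries E420, E434 and E435, and at 78.2, 25.4 and 74.5 CPM in mutant libraries E423, E433 and E440. The mutants E423 and E440 were the highest libraries, and E433 was lower than both E420 and E435, so the groups overlapped. The group means were 40.4 ± 29.8 CPM in controls and 59.3 ± 29.5 CPM in mutants (SD, n = 3). In E434 Trp63 held 10.5% of the mean of E420 and E435, whereas Krt5 held 0.167%.

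Tfap2a (ENSMUSG00000021359.16, chr13:40715302-40738376) and Gata3 (ENSMUSG00000015619.10, chr2:9857078-9890034) encode an AP-2 factor of the surface ectoderm and a zinc-finger factor needed for skin barrier lipids. Tfap2a stood at 12.6, 0.0882 and 13.7 CPM in control libraries E420, E434 and E435, and at 25.1, 5.36 and 24.7 CPM in mutant libraries E423, E433 and E440. Gata3 stood at 23.7, 0.309 and 22.2 CPM in these controls and at 32.7, 9.33 and 33.1 CPM in these mutants. Both genes were almost without counts in E434, at 4 and 14 counts, and mutant E433 lay between E434 and the other controls. The mean of E423 and E440 was 1.89 times that of E420 and E435 for Tfap2a and 1.43 times for Gata3.

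Grhl1 (ENSMUSG00000020656.16, chr12:24572283-24617391) and Grhl3 (ENSMUSG00000037188.7, chr4:135541888-135573630) are grainyhead-like factors, which act on desmosome genes and on barrier formation. Grhl1 stood at 59.7, 0.529 and 58.0 CPM in control libraries E420, E434 and E435, and at 95.2, 23.7 and 95.2 CPM in mutant libraries E423, E433 and E440. Grhl3 stood at 37.4, 0.176 and 35.6 CPM in these controls and at 52.8, 11.8 and 51.8 CPM in these mutants. In E434 both held less than 1% of the mean of E420 and E435, at 0.900% and 0.483%. Mutant E433 held 40.3% of that mean for Grhl1 and 32.4% for Grhl3, the lowest share among the members. The third family member, Grhl2, had the same order, from 0.154 CPM in E434 to 16.7 CPM in E423.

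Ovol1 (ENSMUSG00000024922.2, chr19:5549136-5560646), a zinc-finger repressor that limits the growth of keratinocyte progenitors, stood at 16.6, 0.0882 and 15.1 CPM in control libraries E420, E434 and E435, and at 32.9, 6.05 and 31.1 CPM in mutant libraries E423, E433 and E440. Zfp750 (ENSMUSG00000039238.6, chr11:121510978-121519333), a p63 target that promotes terminal differentiation, stood at 41.2, 0 and 39.8 CPM in these controls and at 67.3, 15.8 and 63.4 CPM in these mutants. It was the only member with no count in E434, where a count of 0 allows up to 0.132 CPM. The mean of E423 and E440 was 2.02 times that of E420 and E435 for Ovol1 and 1.62 times for Zfp750.

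Klf4 (ENSMUSG00000003032.8, chr4:55527143-55532466), a Krüppel-like factor needed for the skin barrier, stood at 176, 78.8 and 174 CPM in control libraries E420, E434 and E435, and at 292, 117 and 294 CPM in mutant libraries E423, E433 and E440. Hopx (ENSMUSG00000059325.14, chr5:77086988-77115121), a homeodomain protein that does not bind DNA, stood at 47.8, 12.7 and 46.8 CPM in these controls and at 93.4, 27.5 and 93.5 CPM in these mutants. Both were lowest in E434 but far from absent there, at 44.9% and 26.8% of the mean of E420 and E435. These 2 factors thus had transcripts in a library almost without those of the basal keratin Krt5, although Krt8, a keratin of simple epithelia, stood there at 10.9 CPM.

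Prdm1 (ENSMUSG00000038151.13, chr10:44437177-44528501), the repressor Blimp1, which acts in the last steps of keratinocyte differentiation as well as in lymphocytes, differed from the other 9. It stood at 7.96, 7.13 and 8.51 CPM in control libraries E420, E434 and E435, and at 38.8, 8.21 and 40.9 CPM in mutant libraries E423, E433 and E440. The 3 controls and mutant E433 were nearly level, and E423 and E440 stood alone above them. In E434 it held 86.5% of the mean of E420 and E435. The mean of E423 and E440 was 4.83 times that of E420 and E435, the largest such fold among the members, whose folds began at 1.33 for Trp63. Other cell types varied over the same libraries. Of the adipocyte genes, 6 of 6 were higher in all mutants, against 6.81% of all genes tested. The adipocyte genes summed to 147, 158 and 145 CPM in control libraries E420, E434 and E435. In mutant libraries E423, E433 and E440 they summed to 659, 216 and 674 CPM, so that E423 and E440 were highest there too. Of the 12 thymocyte and T cell genes 11 were tested, and their summed level ran from 3.03 to 3.23 CPM in controls and from 3.88 to 5.59 CPM in mutants, highest in E433. Rag2, which defines developing lymphocytes, had at most 2 counts in a library. The part of these cells in the level of Prdm1 was not tested.

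Measured per length, as TPM from RSEM, which divides by gene length, the regulators spanned a wide range. In control E420 Klf4 stood at 91.1 TPM and Hopx at 85.3 TPM, followed by Grhl1 at 24.7, Trp63 at 20.1, Zfp750 at 18.1, Grhl3 at 17.9, Gata3 at 11.2, Ovol1 at 10.9, Tfap2a at 7.50 and Prdm1 at 2.23 TPM. In mutant E423 Hopx, at 152 TPM, stood above Klf4, at 145 TPM, and Prdm1 remained lowest, at 10.5 TPM. Neighbours in this order such as Zfp750 and Grhl3, or Gata3 and Ovol1, differed by less than the spread within a group. Krt5 itself was at 273 TPM in E420 and 611 TPM in E423.

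With edgeR's quasi-likelihood test over all genes, 0 of the 10 members passed the limits of an adjusted p of 0.1 and a log2 fold change of 1 in either direction, where 0.0338% of all genes passed as higher and 0.0301% as lower. At an unadjusted p below 0.05 there was 1 of the 10 members, Prdm1, against 10.6% of all genes. With DESeq2 1 member passed the limits, again Prdm1, against 1.62% of genes with an adjusted p that passed as higher. Log2 fold changes, mutant over control, ran from 0.56 for Trp63 to 1.90 for Prdm1, with a median of 0.86 against 0.01 over all genes tested. Standard errors were wide, from 0.44 for Klf4 to 1.49 for Zfp750. For Prdm1 the log2 fold change was 1.90 ± 0.56 (SE), with a 95% interval of 0.56 to 3.23 and an adjusted p of 0.389 in edgeR, and an adjusted p of 0.0914 in DESeq2. For Trp63 it was 0.56, with a 95% interval of -1.39 to 2.50 and an adjusted p of 0.833 in edgeR.

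**Figure D2:**
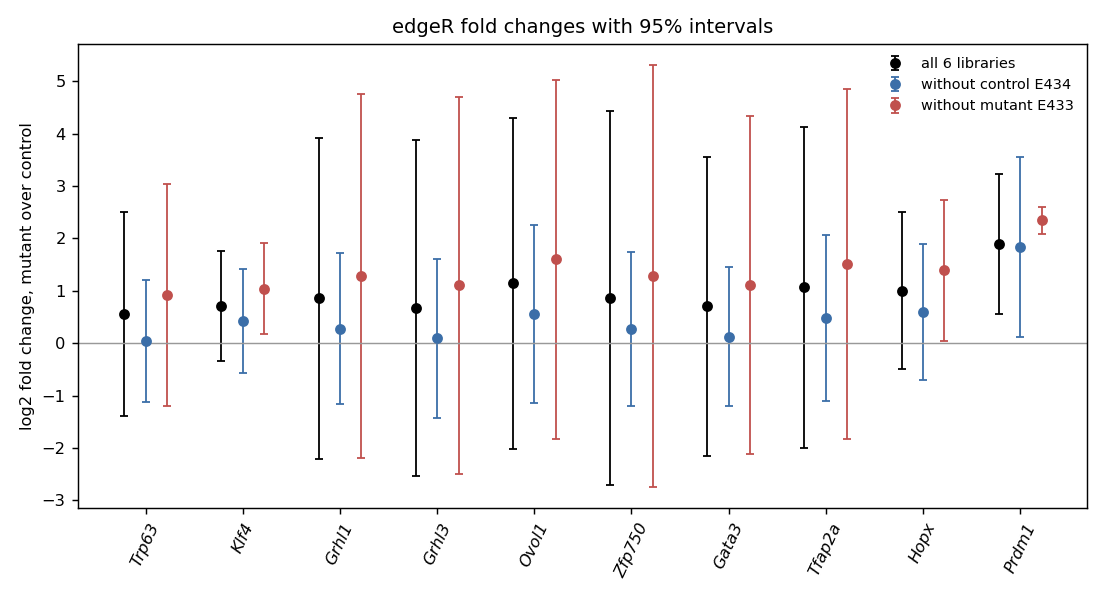
Log2 fold change, mutant over control (vertical axis), of each transcription factor (horizontal axis) from edgeR, with its 95% interval as a bar. Black shows all 6 libraries, blue the fit without control E434 and red the fit without mutant E433. Only Prdm1 has all 3 intervals above 0.

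Single libraries moved these folds. Without control E434 the log2 fold change of Trp63 was 0.05, that of Grhl3 0.09 and that of Gata3 0.13, and the median over the members was 0.35. All 10 values stayed above 0, and 0 members passed the limits in edgeR, with 1 (Prdm1) at an unadjusted p below 0.05, against 10.7% of all genes. Without mutant E433, Prdm1 passed in edgeR, with a log2 fold change of 2.34 and an adjusted p of 0.00103, and the other 9 did not pass. In that fit 1087 genes passed, against 17 with all 6 libraries. Its mutants were E423 and E440, which were nearly alike, so the spread between mutants in it was only that within this close pair. With the close libraries summed, the log2 fold change of Prdm1 was 1.64 and 0 members passed the limits.

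To relate each regulator to basal keratinocyte transcripts, each count was divided by the Krt5 count of the same library and given per 1000 Krt5 counts. Trp63 stood at 160 and 141 per 1000 Krt5 counts in controls E420 and E435, and at 86.9, 132 and 83.0 in mutants E423, E433 and E440. Grhl3 stood at 99.7 and 90.9 in these controls and at 58.7, 61.3 and 57.8 in these mutants. Both were below these controls in every mutant, with E433 nearest to the controls for Trp63 and level with the other mutants for Grhl3. In control E434 the denominator was only 29 counts, and the ratios there, such as 9448 for Trp63 and 276 for Grhl3, rest on that number. How much of its Trp63 came from cells other than keratinocytes was not tested.

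Per Krt5 count, 6 of the 10 members, Trp63, Grhl1, Grhl3, Ovol1, Gata3 and Tfap2a, lay below every control in each of the 3 mutants, against 4.25% of all genes tested. None was higher in all mutants, against 0.0414% of all genes. With 29 Krt5 counts in E434, a gene could hardly exceed its ratio there, so this 0 says little. Each of the 6 had a two-sided exact permutation p of 0.1, the smallest that 3 against 3 allows, so that the design cannot reach 0.05. The difference in mean log2 ratio, mutant minus control, ran from -0.90 for Ovol1 to -2.59 for Trp63. Both these differences and the p values include E434, whose ratios rest on 29 Krt5 counts. Without E434 the difference was -0.61 for Trp63, -0.46 for Grhl1, -0.68 for Grhl3, -0.28 for Ovol1, -0.57 for Gata3 and -0.30 for Tfap2a. In that comparison 7 members, these 6 and Zfp750, were lower in all mutants, against 4.31% of all genes, and 1 member, Prdm1, was higher, against 3.06%. Among the genes that shared the order of libraries given above, 11.4% were lower in all mutants.

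The 7 lower members differed among themselves in how E433 behaved. Tfap2a was nearly level across the mutants, at 27.9, 27.8 and 27.5 per 1000 Krt5 counts in E423, E433 and E440, below the 33.6 and 35.0 of controls E420 and E435. Gata3 was at 63.3 and 56.7 in these controls and at 36.3, 48.4 and 36.9 in these mutants, with E433 between. Ovol1 was at 44.4 and 38.5 in the controls and at 36.6, 31.4 and 34.7 in the mutants, where E433 was the lowest and E423 nearly reached control E435. Zfp750 was at 110 and 102 in the controls and at 74.8, 82.2 and 70.7 in the mutants.

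Klf4 and Hopx overlapped between the groups per Krt5 count. Klf4 stood at 470 and 446 in controls E420 and E435 and at 325, 610 and 328 in mutants E423, E433 and E440. Hopx stood at 127 and 120 in these controls and at 104, 143 and 104 in these mutants. In both genes E433 lay above the controls and the other mutants below them. When the level of control E434 was first subtracted from gene and from Krt5, Klf4 in E433 came to 0.797 times and Hopx to 0.856 times the mean of E420 and E435. In the mutants E423 and E440 these values were 0.946 and 0.994. This subtraction, also used for Prdm1 below, takes E434 as the level outside skin in every library. The libraries differed in other tissues too, with cartilage genes at 19688 CPM in E434 against 1107 in E420, 1049 in E435 and 6947 in E433. Whether E434 holds the right level to subtract was not tested.

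Prdm1 was the member that went the other way. It stood at 21.2 and 21.7 per 1000 Krt5 counts in controls E420 and E435 and at 43.1, 42.6 and 45.6 in mutants E423, E433 and E440. All 3 mutants were above both of these controls. In E433 this came with a Prdm1 level at 99.7% and a Krt5 level at 50.3% of the mean of E420 and E435. By contrast, control E434, with 323 Prdm1 counts on 29 Krt5 counts, was far above all of them. The difference in mean log2 ratio, mutant minus control, was -1.97 with E434 and 1.02 without it, with exact permutation p values of 1 and 0.2. After subtraction of the level in E434, Prdm1 per Krt5 was 12.6 times the mean of E420 and E435 in E423 and E440 and 1.96 times in E433, where the remainders of E420, E435 and E433 were only 0.840, 1.39 and 1.09 CPM.

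**Figure D3:**
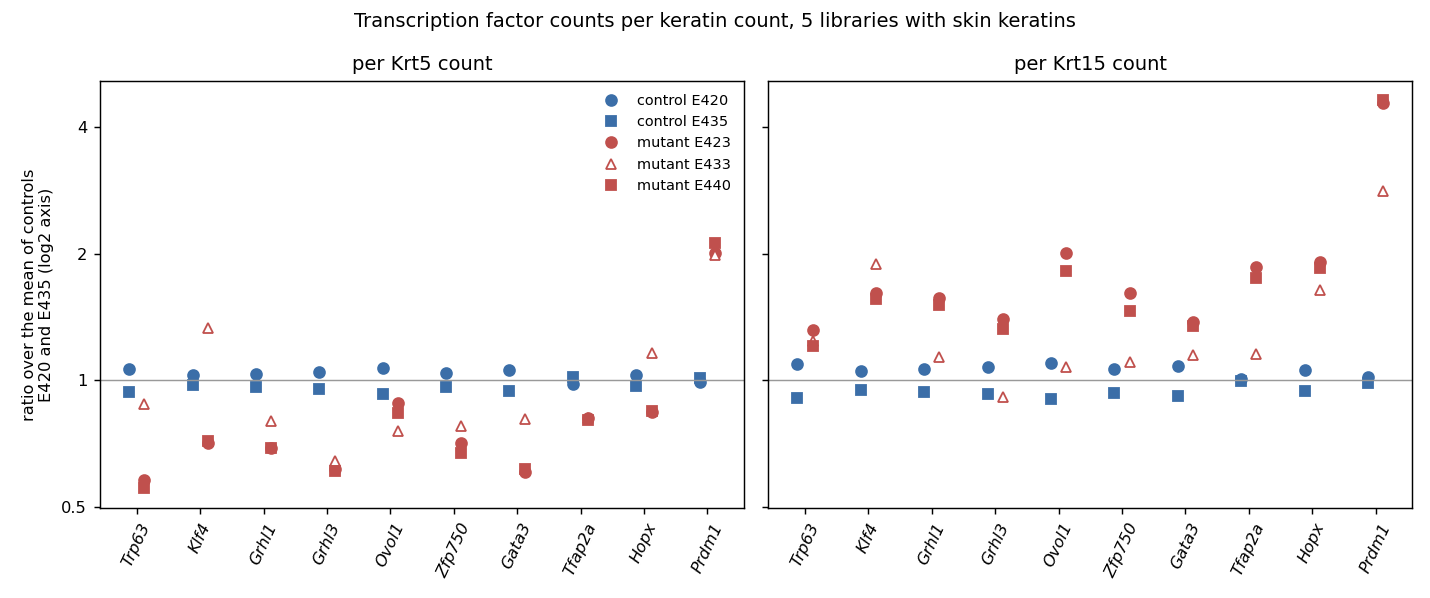
Counts of each transcription factor per Krt5 count (left) and per Krt15 count (right) in 5 libraries, each divided by the mean of controls E420 and E435 (vertical axis, log2 scale). Blue symbols are controls and red symbols mutants, with open triangles for E433, and control E434, with 29 Krt5 counts, is left out. Most red symbols lie below the line at 1 per Krt5 and above it per Krt15, and Prdm1 lies above it in both.

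The direction of these ratios depended on the keratin in the denominator. Krt14, the partner of Krt5, followed it closely, at 701 and 737 per 1000 Krt5 counts in controls E420 and E435 and at 714, 772 and 697 in mutants E423, E433 and E440. With Krt14 as the denominator and without E434, 7 members were again lower in all mutants, against 4.83% of all genes, and 1 higher, against 2.99%. With the summed basal list 5 were lower, against 4.26%, and 2 higher, against 4.7%. Krt15, a keratin of immature basal cells, was itself lower per Krt5, at 978 and 1032 in these controls and at 441, 707 and 460 in these mutants. Per Krt15 count and without E434, 8 members were higher in all mutants, against 22.4% of all genes, and 0 lower, against 1.18%. Trp63, for example, was at 163 and 136 per 1000 Krt15 counts in E420 and E435 and at 197, 186 and 181 in E423, E433 and E440. Only Prdm1 was higher in all mutants under Krt5, Krt14 and Krt15 alike once E434 was left out. With edgeR and the log Krt5 count in place of library size, 0 members passed without E434, 0 had an unadjusted p below 0.05, and every member had an adjusted p of 1.

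Genes of the epidermal layers gave a reference for these shifts. Per Krt5 count and without E434, 4 of the 8 spinous genes were higher in all mutants and 2 lower. Of the 15 granular and cornified genes 8 were higher and 1 lower. Over all genes tested, 3.06% were higher and 4.31% lower in this way. With 0.5 added to both counts, a gene with 0 counts has a higher ratio in E433, where Krt5 counts were fewer. Kprp and Lce1b had 0 counts in E420, E435 and E433, so they ranked as higher in E433 for this reason alone. Flg in these libraries, given below, stayed under the 6 counts that a count of 0 allows. In CPM, 2 of the 15 were higher in all mutants than in all controls, against 6.81% of all genes. Krt1, the first keratin above the basal layer, stood at 4050 and 4209 per 1000 Krt5 counts in controls E420 and E435 and at 11322, 5047 and 10994 in mutants E423, E433 and E440. Flg, filaggrin of the granular layer, had 4 counts in E420, 1 in E435, 5 in E433 and 0 in E434, against 22712 in E423 and 22215 in E440. Ivl, involucrin of the cornified envelope, stood at 26.5 and 20.3 per 1000 Krt5 counts in E420 and E435 and at 169, 28.4 and 160 in E423, E433 and E440. For Flg and Ivl, E433 was thus close to the controls E420 and E435 and far from the other mutants.

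Most periderm and simple epithelial genes ran opposite to them. Of the 8 in the list, 6 were lower per Krt5 in all mutants than in both of these controls and 0 higher. Over all genes tested, 4.31% were lower and 3.06% higher in this way. Krt17 was among the genes of the list that were not lower in all mutants. In edgeR with the log Krt5 count in place of library size and without E434, its log2 fold change was 0.38, with a 95% interval of -1.85 to 2.60. Krt4 stood at 322 and 327 per 1000 Krt5 counts in E420 and E435 and at 15.0, 143 and 16.4 in E423, E433 and E440. Krt19 stood at 204 and 216 in these controls and at 25.8, 118 and 30.2 in these mutants. Krt8, Krt18 and Krt19 are also keratins of mesothelium, the lining of the chest cavity, and of its 5 marker genes 4 were lower per Krt5 in all mutants and 0 higher. The mesothelium genes summed to 134, 38.2 and 138 CPM in control libraries E420, E434 and E435 and to 94.9, 50.6 and 97.2 CPM in mutant libraries E423, E433 and E440. Their part in the periderm counts was not tested. In E423 and E440 the median log2 shift per Krt5 from E420 and E435 was -0.51 over the 10 regulators, 0.49 over the spinous genes, 3.26 over the granular and cornified genes and -1.71 over the periderm genes. In E433 the corresponding medians were -0.30, 0.02, 0.29 and -0.49. For cells outside the epidermis, the medians in E423 and E440 were -1.94 over the mesothelium genes, -1.58 over the macrophage genes and -1.33 over the endothelial genes, and in E433 they were -0.42, 0.97 and 1.21. In E423 and E440 the median shift over the regulators was smaller in size than that over the cornified and periderm genes. Embryos of one age can differ in the maturity of their skin, and genotype, maturity and the skin taken at dissection cannot be told apart here.

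**Figure D4:**
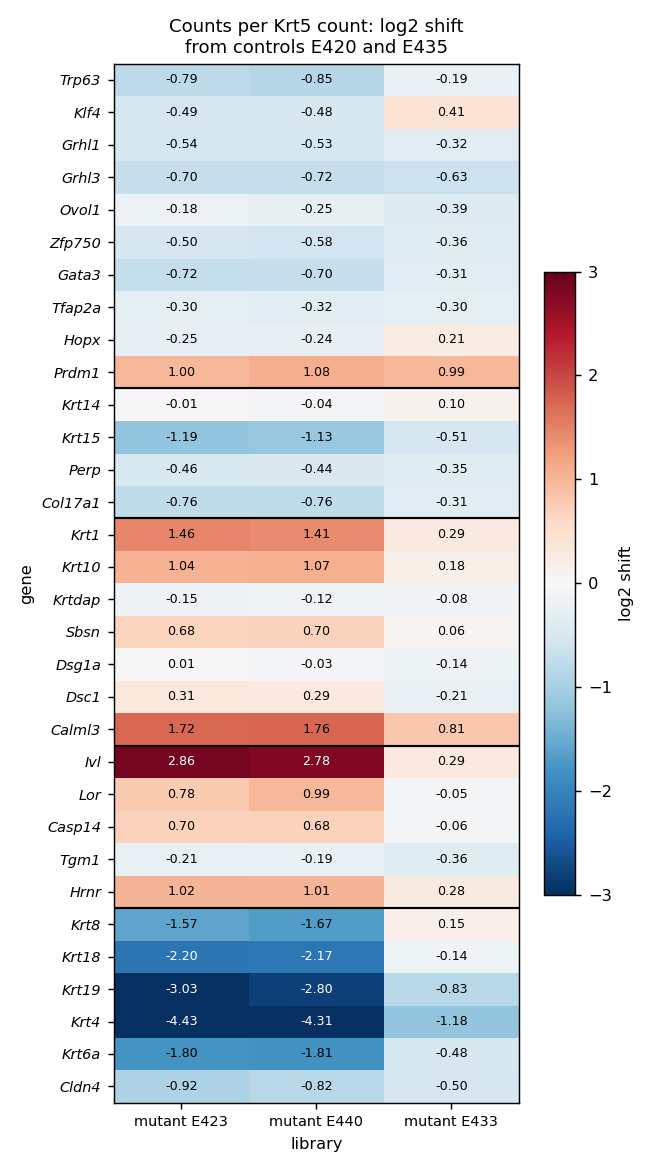
Log2 shift of counts per Krt5 count in each mutant library (columns) from the mean of controls E420 and E435, for the 10 transcription factors and selected list genes (rows). Lines divide regulators, basal genes together with the p63 target Perp, spinous, granular and cornified, and periderm genes. Colours are clipped at 3 either way. Not all list genes are drawn. Among those left out are Col7a1 of the basal list and Krt17 of the periderm list. Flg, Flg2, Kprp, Rptn and the Lce genes of the granular and cornified list are left out too. Among the rows drawn, Ivl reaches 2.86 in E423 and Krt4 falls to -4.43. In E433 all rows drawn but Krt4 lie between -1 and 1.

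Of the 22 other epidermal transcription factors in the list, 0 passed the limits in edgeR (1 at an unadjusted p below 0.05) and 0 in DESeq2. The order of libraries given above held for 16. Over all genes tested, 10.6% had an unadjusted edgeR p below 0.05 and 5.72% had that order. The median log2 fold change of the 22 was 0.75, and 0.19 without E434. Per Krt5 count and without E434, 7 of the 22 were lower in all mutants (Grhl2, Tfap2b, Tfap2c, Dlx3, Elf5, Pou2f3 and Bnc1), against 4.31% of all genes. In the same comparison 1 was higher, Pou3f1, against 3.06%. Pou3f1, a POU factor of the suprabasal layers, stood at 23.2 and 24.5 per 1000 Krt5 counts in controls E420 and E435 and at 39.0, 42.0 and 38.3 in mutants E423, E433 and E440. Elf5, an ETS factor of epithelia, stood at 30.8 and 35.2 in these controls and at 6.31, 18.7 and 5.20 in these mutants. Per Krt5 count and without E434, Pou3f1 was higher in all mutants, as Prdm1 was, but its level in CPM followed the order of libraries given above, which that of Prdm1 did not. Elf5 was the furthest below the controls in E423 and E440.

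Of 8 known p63 targets, 0 passed the limits in edgeR and 0 in DESeq2, and 1 had an unadjusted edgeR p below 0.05, against 10.6% of all genes. Per Krt5 and without E434, 2 of the 8, Perp and Col17a1, were lower in all mutants, against 4.31% of all genes. Perp, a desmosome protein, stood at 1391 and 1374 per 1000 Krt5 counts in controls E420 and E435 and at 1004, 1082 and 1019 in mutants E423, E433 and E440. The other 6, among them Jag2, Dst and Fras1, overlapped between these mutants and controls. Jag2, a Notch ligand, had 3239 counts in E434, where Krt5 had 29.

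The genes nearest to a regulator in their profile over the 6 libraries were found among 16566 others with a mean of at least 1 CPM, by the root mean square difference between centred log2 CPM values. Nearest to Trp63 were Plek2, Tmem154 and Plekhg6, at 0.11 to 0.13, and Krt14 stood far off at 1.85. Nearest to Zfp750 were Pla2g4f, Orm1 and Serpinb7, at 0.16 to 0.19, and Krt5 was in place 8, at 0.27. Tgm1 and Cnfn, genes of the cornified envelope, were among the 3 nearest of both Ovol1 and Tfap2a, and Nectin4, a junction protein, led for both Grhl1 and Tfap2a. Nearest to Grhl3 were Fgfbp1, Cldn23 and 4833423E24Rik. Klf4 had Cptp, Sowahc and Sgpp1 nearest, and Hopx had Gcat, Tenm2 and Eps8l2. Nearest to Prdm1 were Paqr7, Plk3 and Ecm1, at 0.12 to 0.13, and the closest member to it was Klf4, in place 279. These likenesses rest on 6 libraries.

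Markers of other cell types that could hold these factors moved with some libraries. Thymic epithelium, where Foxn1 and Trp63 are active, had a summed level of 18.2 to 19.5 CPM in controls and 18.2 to 20.9 CPM in mutants over 5 genes, and Psmb11, its defining protease gene, had between 0 and 17 counts in a library, most in E433. Airway and lung genes summed to 1.42 to 2.78 CPM in controls and 1.37 to 2.09 CPM in mutants, and Sftpa1 had 0 counts in all 6 libraries. Sympathetic neuron genes, which include cells that use Gata3, summed to 7.72 to 10.8 CPM in controls and 9.88 to 12.9 CPM in mutants. Melanocyte genes, of which Mitf has sources outside skin, summed to 8.34 CPM in E434, 21.1 to 21.4 CPM in the other controls and 48.2, 19.2 and 46.6 CPM in E423, E433 and E440, with Dct at 0 counts in E434. Cartilage genes summed to 1107, 19688 and 1049 CPM in control libraries E420, E434 and E435 and to 346, 6947 and 334 CPM in mutant libraries E423, E433 and E440. Skeletal muscle genes summed to 10775, 19052 and 10988 CPM in these controls and to 26430, 14481 and 25659 CPM in these mutants. Hepatocyte genes stood out in E433, at 586 CPM, against 29.2 to 46.0 CPM in the other libraries. Their part in the levels of the regulators was not tested.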

How the data were processed

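Rib cage RNA of 3 control and 3 mutant embryos was made into stranded mRNA libraries and sequenced from both ends. The authors deposited counts per gene from HISAT2 2.1.0 and featureCounts 1.6.0 (GRCm38, GENCODE M25, exons, primary alignments only, each end counted alone, strand not used), without normalization. A second set deposited by the authors, from STAR 2.7.6 and RSEM 1.2.31, holds expected counts and TPM per gene. The authors' own comparison tables hold fold changes and p-values from DESeq2 and another 12 columns of per-sample values, and were not used here. Because strand was not used, reads of antisense or overlapping genes cannot be told apart. Symbols were found for 55141 of 55487 gene IDs.

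The 10 members, the gene lists and the tests were chosen with earlier results of these data known. Genes with at least 10 counts over the libraries (26596, among them all 10 members) went through TMM scaling and the quasi-likelihood test of edgeR 4.0.16 in R 4.3.3, with Benjamini-Hochberg adjustment over all genes and limits of 0.1 on the adjusted p and 1 on the log2 fold change. The SE is the log2 fold change divided by the root of F. CPM values are on the TMM scale, and log2 CPM used a prior count of 2. Ratios to Krt5 used counts, with 0.5 added to both for logs, and two-sided exact permutation tests over libraries. The steps were tested on simulated data. Floors of 3 fragments (6 counts, since each end was counted alone) cover counting error only, since reads of one amplified fragment cannot be told apart. The intervals of the log2 fold changes come from the quasi-likelihood fit, so they also hold the spread between libraries of a group.

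The genes named were the members, the genes of the lists, Foxc1, Foxc2 and, for each member, the 3 nearest profiles, of which those of Gata3 are not reported here. Alternatives were the Wald test of DESeq2 1.42.0, the size factors of DESeq2 in edgeR, filterByExpr, no filter, rounded RSEM expected counts, other limits, other denominators, a pseudocount of 2, a Krt5 offset in edgeR and leaving out each library. Added after the data were seen were subtraction of the level in E434, the Krt5 offset without E434, denominators without E434, and summing the close libraries (E420 with E435, E423 with E440). The labels do not say whether embryos shared a litter.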

Additional observations from a re-analysis of the deposited data

How the results depend on the processing

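No paired analysis was possible because the labels give embryos no number, litter or batch shared between the groups. The number of members past the limits was 0 with all 6 libraries, 1 (Prdm1) with DESeq2, and 0 to 1 when a single library was left out, where the 1 came without mutant E433. Over all genes, 17 passed in edgeR, 477 in DESeq2, 37 without a low-count filter, 10 with RSEM expected counts, 0 at adjusted p limits of 0.01 and of 0.05, 0 with the close libraries summed, and between 0 and 1087 when single libraries were left out. The log2 fold change of every member stayed above 0 in all these fits.

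The count of members whose ratio did not overlap between groups was 6 per Krt5, between 6 and 8 when single libraries were left out, and 1 per summed basal keratinocyte list. In E434 that list summed to 164 CPM, of which Itga6 made up 130 CPM and Krt5 0.640 CPM. Itga6 stood between 99.0 and 130 CPM in all 6 libraries, so this sum is not a measure of keratinocytes alone. In a separate measure, edgeR with the Krt5 count in place of library size, 1 member passed the limits, as lower, and 0 did with E434 left out. With all 6 libraries that fit also rests on the 29 Krt5 counts of E434. Per basal list, with all 6 libraries, the difference in mean log2 ratio turned to 1.02 for Grhl1, 1.08 for Grhl3, 1.39 for Ovol1, 0.71 for Gata3, 1.27 for Tfap2a and 0.32 for Prdm1. For Zfp750 it turned from 0.40 to -0.24 with a pseudocount of 2, and without E434 to -0.48 per Krt5, -0.49 per Krt14 and -0.26 per basal list. For Prdm1 without E434 it turned from -1.97 to 1.02 per Krt5, 1.01 per Krt14, 1.97 per Krt15 and 1.24 per basal list. Per basal list without E434, Klf4 turned to 0.033 and Hopx to 0.13. Per Krt15 without E434 the difference turned to 0.33 for Trp63, 0.75 for Klf4, 0.48 for Grhl1, 0.26 for Grhl3, 0.67 for Ovol1, 0.37 for Gata3, 0.64 for Tfap2a and 0.85 for Hopx. With each single library left out, the difference per Krt5 ran from -0.48 to 0.87 for Zfp750 and from -3.48 to 1.02 for Prdm1. The cause of these turns was not tested.

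A denominator of 29 Krt5 counts limits every ratio in E434, and 3 embryos a group limit every test.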
